A study of Mus musculus with 15 samples.

Results

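The interferon regulatory factor (IRF) genes Irf1, Irf2, Irf3, Irf4, Irf5, Irf7, Irf8 and Irf9 were followed through 15 ChIP-MNase libraries of mouse cells. Their members were all rows of the promoter annotation that name one of these 8 genes, whatever their values, which gave 11 annotated transcription start sites (TSSs) of 25881. Irf1, Irf5 and Irf9 each had 2 of them, here called -a for the upstream and -b for the downstream TSS. All 11 were among the 13559 promoters with a coverage score above 100, the minimum used throughout. ChIP-MNase enriches chromatin with an antibody, digests it on the beads with micrococcal nuclease (MNase) and sequences the DNA that nucleosomes protect.

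Dendritic cells (DCs), which present antigen and sense microbes, were differentiated in vitro in GM-CSF from bone-marrow progenitor lines, and fibroblasts were 3T3 cells, an immortalised line. H3K4me1 ChIP, which enriches promoters and enhancers, was available as pooled sets of non-stimulated DCs, of DCs given 100 ng/ml of LPS, a component of bacterial cell walls, for 1 h, of non-stimulated fibroblasts and of fibroblasts given 5 ng/ml of TNF-α, an inflammatory cytokine, for 1 h. In each of these 4 sets the authors pooled 2 replicates, so that they carry no replicate error. Another 8 H3K4me1 libraries were single replicates of fibroblasts transduced with a control vector or with a retroviral short hairpin RNA against Brg1 and Brm, the catalytic subunits of the BAF chromatin remodeller (BAF-kd), non-stimulated or given TNF-α as above, with 2 libraries in each of the 4 groups. Polymerase II (pol-II) phosphorylated at serine 7 (S7P, 2 libraries) or serine 5 (S5P, 1 library) of its tail was targeted in TNF-α-stimulated fibroblasts. Occupancy of DNA does not show the transcripts of Brg1 and Brm, so the knock-down could not be checked here. The labels do not say whether replicates came from separate cultures, and the paper lists them as biological replicates.

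IRFs are transcription factors that share a DNA-binding domain and recognise repeats of the letters GAAA in the promoters of interferons and of the genes that interferons induce. Irf3, Irf5 and Irf7 lie in the cytoplasm until sensors of microbes lead to their phosphorylation, after which they activate interferon genes. Irf9 acts downstream of the type I interferon receptor, Irf1 activates interferon-γ response genes, Irf2 competes with Irf1 for the same sites, and Irf4 and Irf8 act mainly in cells of the immune system, often with the factor PU.1.

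The sequence just upstream of the TSS is where active promoters are usually free of nucleosomes, and it is shown for Irf1-a and Irf3, the TSSs with the clearest depletion, and for Irf4, Irf5-b and Irf8 as examples with a TATA or IRF element. Each run is from the mm9 reference on the strand of the gene, ends at or before the base next to the TSS, and leaves out bases annotated as untranslated or coding exon. Capitals mark matches to the motifs named in the next paragraph.

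Irf1-a chr11:53583366-53583515 plus strand: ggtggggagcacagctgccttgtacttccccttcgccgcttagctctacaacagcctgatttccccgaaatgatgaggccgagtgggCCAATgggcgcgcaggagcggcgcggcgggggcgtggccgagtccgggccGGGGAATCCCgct

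Irf3 chr7:52252950-52253017 plus strand: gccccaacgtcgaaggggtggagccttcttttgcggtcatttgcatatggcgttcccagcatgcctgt

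Irf4 chr13:30840977-30841094 plus strand: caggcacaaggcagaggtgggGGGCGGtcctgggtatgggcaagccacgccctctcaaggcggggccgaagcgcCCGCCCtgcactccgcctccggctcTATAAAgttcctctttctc

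Irf5-b chr6:29479132-29479281 plus strand: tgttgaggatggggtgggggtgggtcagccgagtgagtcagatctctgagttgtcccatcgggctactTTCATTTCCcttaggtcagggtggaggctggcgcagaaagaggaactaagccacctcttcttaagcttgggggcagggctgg

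Irf8 chr8:123260126-123260257 plus strand: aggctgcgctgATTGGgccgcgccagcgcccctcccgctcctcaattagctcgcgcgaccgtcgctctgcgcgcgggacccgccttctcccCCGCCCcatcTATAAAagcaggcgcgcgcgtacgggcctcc

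Motifs were searched on both strands in the 300 bp upstream of each TSS and in the same window of 25738 promoters. TATAAA, the TATA box, was found at Irf4, Irf7 and Irf8, 3 of the 11 TSSs against 13.9% of all promoters. At Irf4, Irf7 and Irf8 it began 51, 29 and 49 bp upstream of the annotated TSS, with the GENCODE start of Irf4 at −32 bp. The upstream stretch free of annotated untranslated or coding exon ended at −58 bp at Irf7 and at −19 bp at Irf8. The match at Irf7 thus lay downstream of that end, and the match at Irf8 upstream of it. GAAANNGAA, the core of the interferon-stimulated response element that IRFs bind, was found only at Irf2 of the 11 (8.58% of all promoters), where it began 241 bp upstream and overlapped a match to GGAANNGAA, the composite of PU.1 and IRF sites. That composite was also found at Irf5-b, on the opposite strand from 82 to 74 bp upstream, and in 8.14% of all promoters. The NF-κB consensus was found at Irf1-a, Irf2, Irf3 and Irf5-a (9.07% of all promoters). At Irf1-a it lay 13 to 4 bp upstream of the TSS, and the CCAAT box capitalised in the same run 63 to 59 bp upstream. CCAAT was found at 5 TSSs (38.9% of all promoters) and the GC box GGGCGG at 8 (43.6%). A match to these letters is a description of sequence and not a bound site.

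CpG islands covered Irf1-a, Irf1-b, Irf2, Irf3, Irf5-a and Irf8, by a rule that asks for over 50% GC and an observed to expected ratio of CpG over 0.6 within 200 bp of the TSS. These 6 were 54.5% of the 11, against 56.1% of the high-coverage promoters. The observed to expected CpG ratio was 1.09 at Irf1-a and 0.943 at Irf3, and it was lowest at Irf9-b, with 0.0956. In the mm9 annotation the TSSs lay at position 53583516 (Irf1-a) and 53583975 (Irf1-b) of chromosome 11, 47825099 (Irf2) and 123260276 (Irf8) of chromosome 8, 52253018 (Irf3) and 148452323 (Irf7) of chromosome 7, 30841127 (Irf4) of chromosome 13, 29476625 (Irf5-a) and 29479282 (Irf5-b) of chromosome 6, and 56222822 (Irf9-a) and 56223416 (Irf9-b) of chromosome 14. Irf7 is on the minus strand and the others on the plus strand. A GENCODE transcript of the same build began within 50 bp of each. The windows of 1000 bp on each side overlapped between Irf1-a and Irf1-b, 459 bp apart, and between Irf9-a and Irf9-b, 594 bp apart, so that these pairs share fragments and are not independent. Irf3 shared its window with the TSS of Bcl2l12, which begins 69 bp upstream on the opposite strand, and Irf2 with the noncoding gene Gm16675, 230 bp upstream on the opposite strand.

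Before stimulation, the 4 members best known from immune cells were expressed far higher in the ranking of DCs than in that of fibroblasts. The annotation carries one expression value per TSS and cell-type, in FPKM (fragments scaled by transcript length and library size) and without replicates, from public RNA-seq datasets, and the scales of the cell-types differ, so that levels were compared as percentiles among all promoters. Irf4 stood at the 97.2nd percentile in DCs (8.41 FPKM) and at the 38.2nd in fibroblasts (0.0281 FPKM), and Irf8, a factor required for many DCs, at the 95.3rd (5.31 FPKM) and the 41st (0.0516 FPKM). Irf5-a reached the 98.6th percentile in DCs, the highest of the 11, with 16.8 FPKM, and the 59.2nd in fibroblasts. Irf7, which amplifies the interferon response, stood at the 79.4th percentile in DCs and the 33.1st in fibroblasts.

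Among the members expressed in many tissues, Irf1-a and Irf2 ranked high in both cell-types. Irf1-a stood at the 96.9th percentile in DCs (7.42 FPKM) and the 84.9th in fibroblasts (14.6 FPKM), and Irf2 at the 94.3rd and the 85.2nd. Irf3 ranked higher in fibroblasts, at the 80.2nd percentile (10.2 FPKM), than in DCs, at the 62.7th (0.307 FPKM). The paired TSSs of Irf9 ranked in opposite order, since Irf9-a stood at the 94.3rd percentile in DCs and the 50.8th in fibroblasts and Irf9-b at the 60.6th and the 71.2nd. By the authors' expression threshold for active promoters, 0.02 times the mean, but without their exclusion of inducible promoters, all 11 TSSs were active in DCs, whereas Irf1-a, Irf2, Irf3 and Irf9-b were active in fibroblasts. The other 7 had expression above 0 in fibroblasts and belonged to neither the active nor the inactive class. The cell-type labels of these expression values were checked against 12 markers each, and all 12 DC markers ranked higher in DCs and all 12 fibroblast markers higher in fibroblasts. Since the values come from public RNA-seq, the identity of the cells in the ChIP-MNase libraries was not tested.

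**Figure D1:**
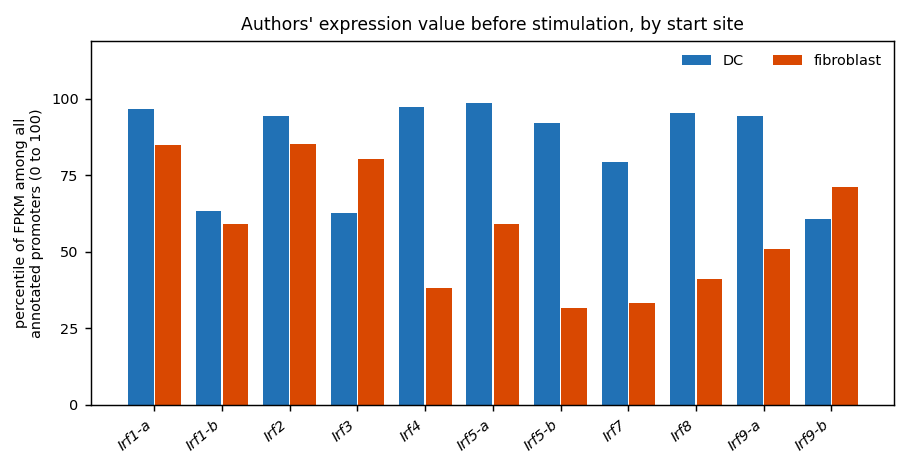
Bars show the percentile (0 to 100) of the authors' FPKM value among all annotated promoters, for each of the 11 TSSs, before stimulation in DCs (blue) and fibroblasts (orange), with 1 value each and no error. Irf4, Irf5-b, Irf7 and Irf8 have the widest gaps, and Irf3 and Irf9-b are the TSSs that rank higher in fibroblasts.

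Nucleosome occupancy was read in 200 bins of 10 bp around each TSS, as the authors' normalised signal. Relative occupancy of the nucleosome-depleted region (NDR), the stretch from −150 to 0 bp, was its mean signal divided by the mean over the whole 2000 bp window, so that 1 is no depletion and 0 means that no fragment was recorded there. The patterning level was the congruence of a promoter with the mean profile of active promoters of non-stimulated cells of its own cell-type, which has an NDR followed by regularly spaced nucleosomes, and a promoter was called patterned where its level lay above the upper quartile of inactive promoters in the same library. The files hold no read counts, so that depth is unknown, and the share of bins with fragments stands in its place: it was 82.0 to 90.2% in the pooled sets and 63.5 to 78.1% in the 8 single H3K4me1 libraries. Across all high-coverage promoters, patterning levels of the 2 replicates of one group were correlated with a Spearman's rho of 0.264 to 0.379, so that single libraries measure single promoters loosely. Occupancy is a mean over cells, in which fewer cells with a nucleosome and a nucleosome present for less of the time cannot be told apart.

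Irf1-a and Irf3 were the members with NDR occupancies below the median promoter and a patterned profile in every pooled set. Relative NDR occupancy at Irf1-a was 0.209 in non-stimulated DCs, 0.0388 in DCs with LPS and 0 in both fibroblast sets. At Irf3 it was 0 in both DC sets, 0.375 in fibroblasts before and 0.00951 after TNF-α. For comparison, the median over all high-coverage promoters was 0.665, 0.631, 0.648 and 0.597 in the same 4 sets. At Irf1-a no fragment was recorded from −150 to 90 bp in non-stimulated fibroblasts, a run of 240 bp that 12.2% of promoters exceeded within 500 bp of the TSS. In DCs with LPS the run spanned −120 to 140 bp, and in non-stimulated DCs it was shorter, from −30 to 40 bp. At Irf3 the run spanned −150 to 110 bp in non-stimulated DCs, and 6.64% of promoters had a longer one. Patterning levels were from 12.7 to 25.6 at Irf1-a over the 4 sets and from 11.9 to 18.7 at Irf3, and they were the only members patterned in both non-stimulated sets, as were 31.9% of all promoters. Because Irf3 and Bcl2l12 face away from each other across 69 bp, the same gap lies upstream of both, and Bcl2l12 had a patterning level of 33.6 in non-stimulated DCs, at the 99.5th percentile of all promoters.

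**Figure D2:**
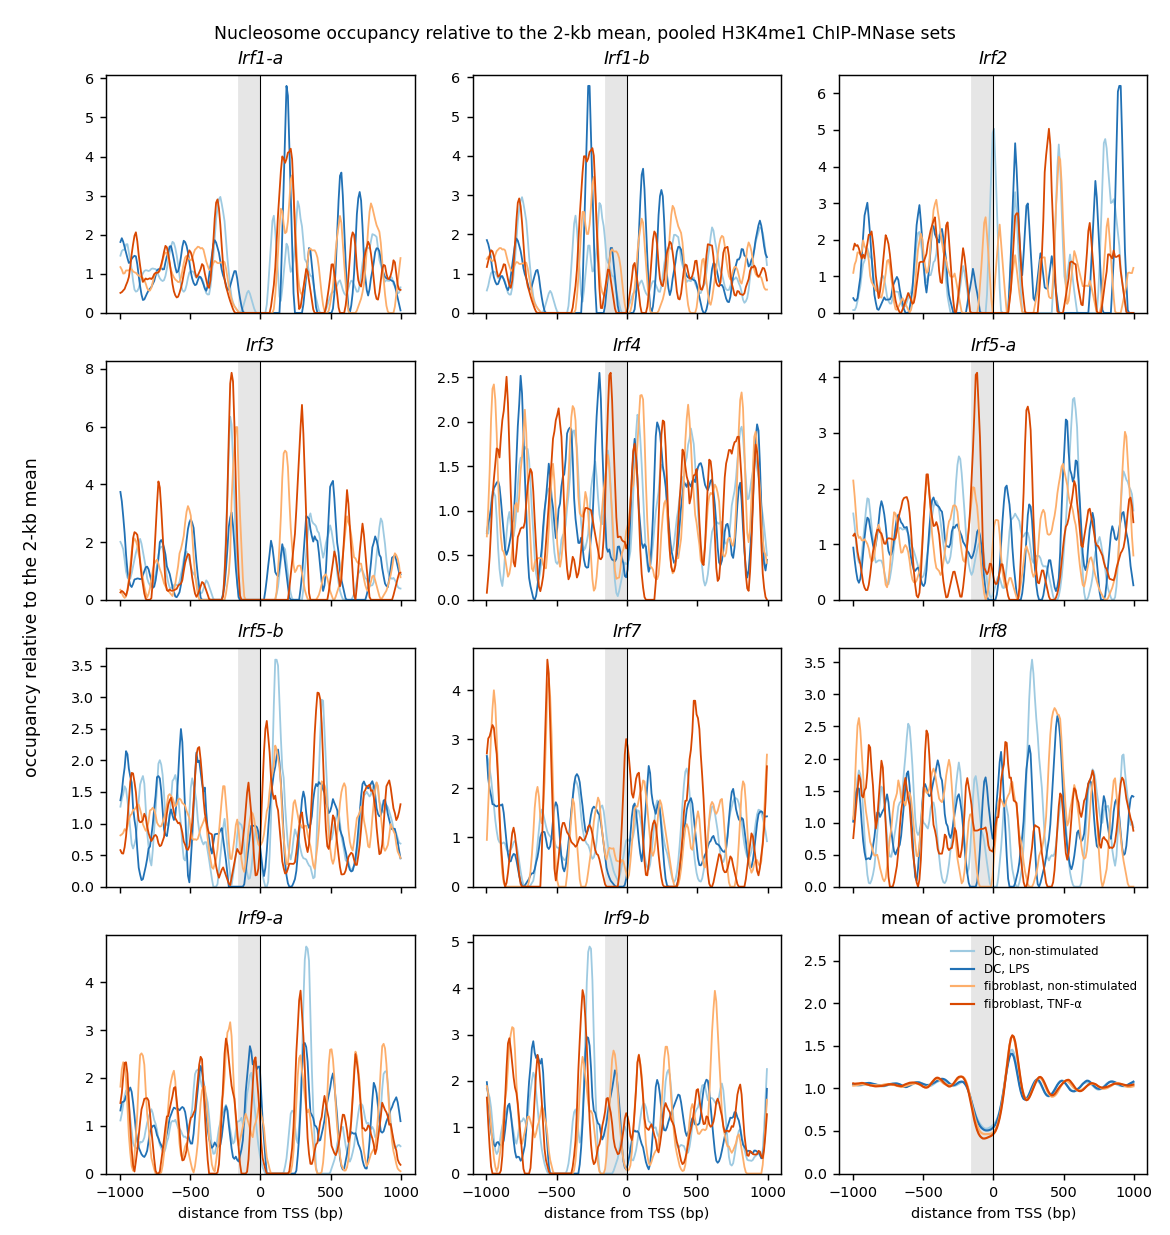
Lines show occupancy divided by the mean of the 2000 bp window against distance from the TSS in bp, for the 11 TSSs and for the mean of active promoters (last panel), in the 4 pooled sets, with the window of −150 to 0 bp in grey. Irf1-a and Irf3 have stretches at 0 across the TSS, Irf9-a has its stretch at 0 downstream of the TSS, and Irf4 has fragments through the TSS in each set.

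Irf9-a had the opposite arrangement. Its relative NDR occupancy was 1.32 in non-stimulated and 1.84 in LPS-stimulated DCs, and 1.05 and 0.947 in non-stimulated and stimulated fibroblasts, above the median promoter in each. At this TSS the NDR window is annotated as exon of another Irf9 transcript. The empty stretch lay downstream instead, from 30 to 160 bp and from 40 to 250 bp in the DC sets and from 70 to 210 bp and from 40 to 200 bp in the fibroblast sets. Occupancy between 50 and 200 bp, where active promoters carry their first nucleosome, was accordingly 0.0738, 0, 0.0205 and 0 of the promoter's mean. The nearest upstream peak of occupancy lay at −65, −75, −5 and −35 bp and the nearest downstream peak at 225, 315, 285 and 285 bp, so that a nucleosome position lay close to the annotated start. Patterning levels of Irf9-a were below 0 in each pooled set (−4.58, −11.5, −0.882 and −2.38), although the TSS stood at the 94.3rd percentile of expression in DCs. The arrangement recurred between the fibroblast sets, with a Pearson's r of 0.654 over 200 bins, compared with a median of 0.315 over all promoters.

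Irf2 differed between states in the same direction in both cell-types. Its patterning level was 2.67 in non-stimulated and 18.9 in LPS-stimulated DCs, and −2.01 before and 16.1 after TNF-α in fibroblasts. Its relative NDR occupancy was 0.898 and 0.256 in the DC sets and 0.955 and 0 in the fibroblast sets. Thus both stimulated sets lay above their non-stimulated counterparts in patterning and below them in NDR occupancy. The difference in patterning with LPS was larger in size than that at 88.8% of promoters, and the difference with TNF-α larger than that at 88.7%. Irf2 also had the lowest coverage score of the 11, 102, just above the minimum, and 70.0% of its bins held fragments in non-stimulated DCs, so that few fragments stand behind these values. In the single control libraries the states overlapped, with patterning levels of Irf2 of 4.01 and 1.70 without and −3.18 and 14.2 with TNF-α. In BAF-kd fibroblasts the levels did not overlap, with 3.16 and 6.87 without and 14.9 and 9.69 with TNF-α. The NDR occupancies of Irf2 in BAF-kd fibroblasts, 1.23 and 0.487 without and 0.201 and 0.645 with TNF-α, did overlap.

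Irf4 and Irf8, which like Irf7 have a TATA box, were not patterned in DCs, in which they ranked far higher in expression. Irf7 was patterned in DCs after LPS (13.5) and not before (2.23). Irf4 was patterned in none of the 4 sets, with levels of 5.66 and 2.25 in the DC sets and 3.65 and −12.0 in the fibroblast sets, and its NDR occupancy of 0.633, 0.473, 0.759 and 1.32 was never close to 0. In DCs, where Irf4 ranked among the highest expressed genes, 100% of its bins held fragments before stimulation. At Irf8 the NDR occupancy was 0.826 and 0.812 in the DC sets, in which the gene ranked high, and 0.166 and 0.813 in the fibroblast sets, and it was patterned in non-stimulated fibroblasts and not in DCs. The difference in NDR occupancy between the cell-types was larger in size than that at 80.0% of promoters for Irf8 before stimulation, and than that at 85.4% for Irf4 after stimulation.

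In the pooled sets, Irf5 and Irf7, which signal from microbial sensors, had higher patterning levels in DCs with LPS than in fibroblasts with TNF-α. Cell-type and stimulus cannot be told apart in this comparison. The same order held at Irf4 (2.25 against −12.0) and, with smaller differences, at Irf1-b, Irf2 and Irf3. Irf1-a, Irf8, Irf9-a and Irf9-b had the opposite order. Irf5-a had patterning levels of 8.59 and 9.02 in the DC sets and −3.34 and −14.2 in the fibroblast sets, and Irf5-b of 16.8 and 10.9 against 5.47 and −4.60. The single libraries differed at Irf5-a, which stood at percentile 3.32 of patterning in the pooled TNF-α set. In the stimulated control libraries it stood at 86.6 ± 1.92 and in the stimulated BAF-kd libraries at 43.9 ± 23.1 (SD, n = 2 each). Its NDR occupancy in control libraries was 0.739 ± 0.0581 without and 0.423 ± 0.00868 with TNF-α (SD, n = 2 each). The pooled fibroblast sets had 0.874 and 1.84. The order at Irf7 changed with the state, with 2.23 in non-stimulated DCs and 9.67 in non-stimulated fibroblasts, but 13.5 after LPS and −2.37 after TNF-α. Irf9-b was patterned in non-stimulated DCs (11.5) and had a level of −7.31 after LPS, and its NDR occupancy was 0.377 and 1.29 in these sets. The difference in patterning at Irf9-b was larger in size than that at 92.3% of promoters. Irf1-b stayed between 6.04 and 11.3 in the 4 sets.

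Counts over the 11 TSSs are given beside the share of all promoters. In non-stimulated DCs 5 of 11 were patterned, against 45.8% of all promoters, and 7 of 11 after LPS, against 45.4%. In non-stimulated fibroblasts 5 of 11 were patterned, against 49.0%, and 4 of 11 after TNF-α, against 48.7%. With square-rooted occupancies the non-stimulated counts became 9 of 11 in DCs, against 51.8% of all promoters, and 3 of 11 in fibroblasts, against 52.8%. Irf5-a, Irf5-b and Irf9-b were patterned in non-stimulated DCs and not in non-stimulated fibroblasts (13.9% of all promoters), whereas Irf1-b, Irf7 and Irf8 were patterned in fibroblasts and not in DCs (17.2%). Irf2, Irf4 and Irf9-a were patterned in neither (37.0%). Thus Irf7 and Irf8 were called patterned in the pooled non-stimulated fibroblasts, where they ranked at the 33.1st and 41st percentile of expression. They were not in the DCs that expressed them more highly. By percentile of patterning, Irf8 stood at 64.8 in that pooled set and at 29.2 ± 6.61 (SD, n = 2) in the non-stimulated control libraries. Irf7 stood at 62.7 and at 47.1 ± 39.2 (SD, n = 2). Over the 12 H3K4me1 libraries, Irf8 was patterned in 4 and Irf7 in 6. Relative NDR occupancy was lower by more than 0.5 in non-stimulated DCs than in non-stimulated fibroblasts at 2 TSSs, Irf1-b and Irf9-b (14.9% of promoters), and higher by as much at 1, Irf8 (16.3%). After stimulation it was lower by more than 0.5 in DCs than in fibroblasts at 3 TSSs, Irf4, Irf5-a and Irf7 (16.1%), and higher at 1, Irf9-a (17.8%). With LPS it was lower by as much at 1, Irf2 (14.7%), and higher at 2, Irf9-a and Irf9-b (13.1%), and with TNF-α lower at 2, Irf1-b and Irf2 (16.6%), and higher at 3, Irf4, Irf5-a and Irf8 (13.9%). Among the 6 TSSs in CpG islands, 3 and 5 were patterned in the DC sets and 4 and 4 in the fibroblast sets, against 59.9, 59.6, 65.2 and 64.5% of all high-coverage promoters in islands. Among the other 5 TSSs, 2 and 2 were patterned in the DC sets and 1 and 0 in the fibroblast sets, against 27.8, 27.2, 28.4 and 28.7% of those outside islands. With 1 pooled set for each state, none of these differences was tested.

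Over all 12 H3K4me1 libraries, Irf1-a was the member with the steadiest depletion. Its relative NDR occupancy was below the library's median in 12 of 12 libraries, which held for 3.36% of promoters, and Irf3 was below it in 11 of 12. At least 11 of 12 was reached by 2 of the 11 TSSs and by 10.7% of promoters. In the single libraries Irf1-a had values of 0.574, 0, 0.0303 and 0 with the control vector and of 0.0591, 0.703, 0.00599 and 0 with BAF-kd. Both values above 0.5 came from non-stimulated libraries. Irf1-a was patterned in 11 and Irf3 in 10 of the 12 libraries, and 15.5% of promoters were patterned in at least 10. At the other end, Irf9-a and Irf9-b had NDR occupancies above the library's median in 10 of 12 libraries each, as did 19.1% of promoters, and Irf9-b was patterned in 2 of 12 (25.3% of promoters in at most 2). These sites share fragments, so that they do not count as separate observations. Library by library, 4, 5, 6 and 6 of the 11 TSSs were patterned with the control vector, against 38.3, 47.1, 43.4 and 43.7% of all promoters, and 4, 7, 6 and 5 with BAF-kd, against 39.6, 42.4, 45.0 and 46.9%. The remaining TSSs lay below the median in 4 (Irf8) to 9 (Irf1-b) of the 12 libraries.

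**Figure D3:**
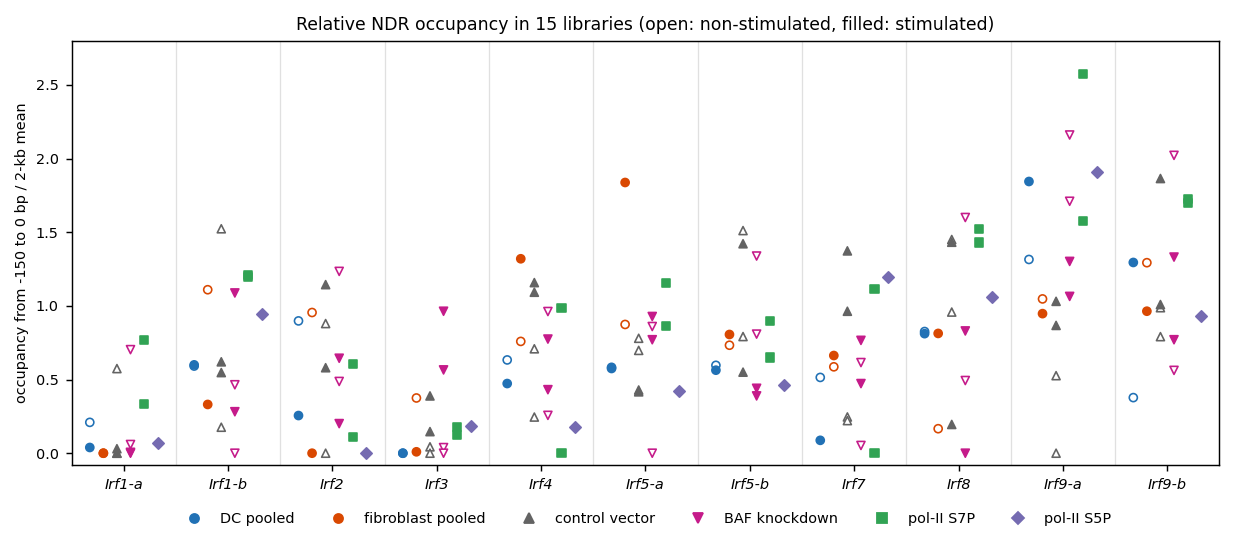
Points show relative NDR occupancy (mean from −150 to 0 bp divided by the 2000 bp mean, no unit) at each TSS in each of the 15 libraries, open without and filled with stimulation, with colour and shape for the cells and antibody. Irf1-a and Irf3 lie lowest, and at Irf9-a the BAF-kd libraries lie between 1.06 and 2.16, above the control libraries, which lie between 0 and 1.03.

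**Figure D4:**
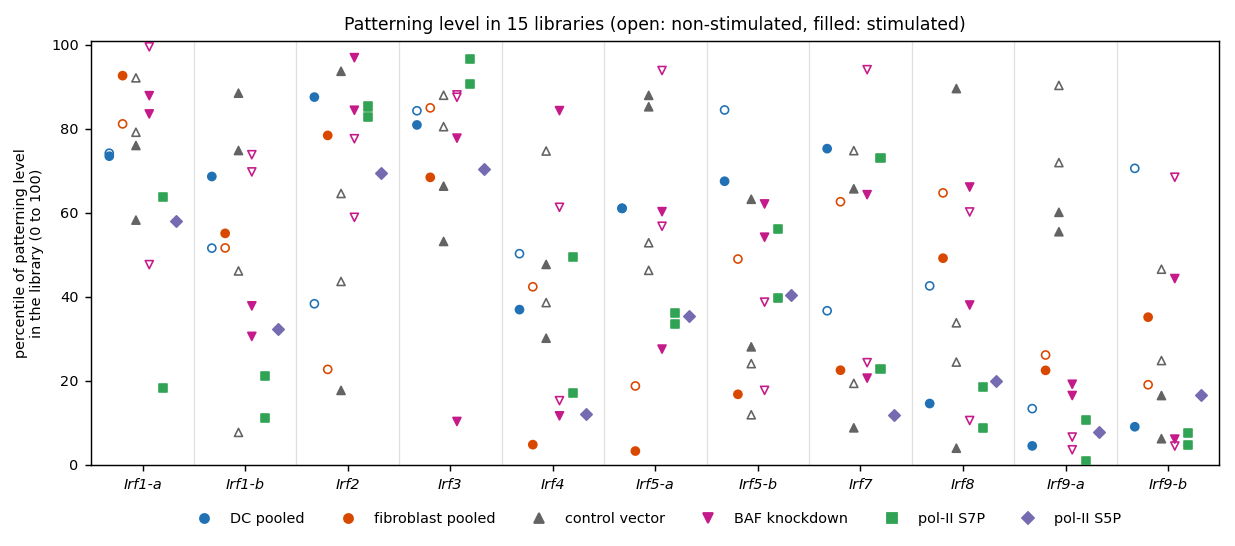
Points show the percentile (0 to 100) of the patterning level among the 13559 promoters of the same library, for each TSS in the 15 libraries, open without and filled with stimulation. Values of one TSS differ widely between libraries, and the highest 4 of the 8 single H3K4me1 libraries at Irf9-a are the control libraries.

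The effect of TNF-α was then tested in the 8 single H3K4me1 libraries, where replicates exist, with limma across all promoters and Benjamini-Hochberg adjustment at 0.05. It was taken as the mean of the effects in control and BAF-kd fibroblasts, and so is not the response of control cells alone. Where values are listed by state, the first 2 of each state are control libraries. No TSS of an IRF gene passed, either in patterning level (0 of 11, with 0.0% of all promoters called) or in relative NDR occupancy (0 of 11, with 0.00751% called, which is a single promoter). Without adjustment, limma's p was under 0.05 for 0 of 11 TSSs in patterning, against 5.73% of promoters, and for 2 in NDR occupancy, against 5.66%. These were Irf3 and Irf7. At Irf3 the NDR occupancy was 0.0433, 0, 0.0381 and 0 in the 4 non-stimulated libraries and 0.147, 0.389, 0.565 and 0.964 in the 4 stimulated libraries. The 2 states did not overlap there, which held in this direction for 0.857% of promoters, and all values but the highest of the stimulated libraries stayed below the median promoter. The difference at Irf3 was 0.496 ± 0.167 (SE, n = 4 against 4 libraries, limma adjusted p = 0.864). In the opposite direction no member (0 of 11) separated the states, against 1.71% of promoters, and in patterning 0 of 11 did so in either direction, against 1.59% (higher) and 1.05% (lower). The pooled fibroblast sets went the other way, with 0.375 without and 0.00951 with TNF-α. At Irf7 the values were 0.246, 0.221, 0.615 and 0.0526 without and 0.964, 1.37, 0.766 and 0.473 with TNF-α, which overlapped, and the difference was 0.610 ± 0.207 (SE, n = 4 against 4, limma adjusted p = 0.864). For Irf1-a the estimated effect of TNF-α on NDR occupancy was −0.325, with a wide 95% interval of −0.879 to 0.229, so that these libraries measure it imprecisely.

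BAF-kd was examined in the same libraries, and it is at Irf9-a that the control and knock-down libraries parted without overlap in both measures. Irf9-a had relative NDR occupancies of 0.526, 0, 1.03 and 0.867 with the control vector and of 1.71, 2.16, 1.06 and 1.3 with BAF-kd, the first 2 values of each being non-stimulated. All 4 knock-down values lay above all 4 control values, an order found in 1.5% of promoters, with the highest control value, 1.03, close to the lowest knock-down value, 1.06. Patterning levels at Irf9-a were 5.21, 11.7, 2.79 and 4.23 with the control vector and −5.81, −9.07, −2.20 and −3.24 with BAF-kd, so that levels were positive in each control library and negative in each knock-down library. Such an order was found in 1.5% of promoters. No member had the opposite order in patterning (0 of 11, 1.47% of promoters) or in NDR occupancy (0 of 11, 1.23%). At Irf9-a the difference was −11.1 ± 2.11 in patterning (SE, n = 4 against 4 libraries, limma adjusted p = 0.827) and 0.953 ± 0.206 in NDR occupancy (SE, n = 4 against 4, limma adjusted p = 0.811). Irf9-a stood at rank 19 of the 13559 promoters by the p of the patterning fit, but neither measure passed the adjustment over all promoters.

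The NDR occupancy of Irf9-a differed more between control and BAF-kd libraries without stimulation, where the means were 0.263 ± 0.372 and 1.94 ± 0.318 (SD, n = 2 each), than with TNF-α, where they were 0.949 ± 0.116 and 1.18 ± 0.168 (SD, n = 2 each). The test of this difference between differences gave −1.44 ± 0.413 (SE, limma adjusted p = 0.788). The pooled sets of fibroblasts without a vector had 1.05 and 0.947, nearer to the stimulated control libraries than to the non-stimulated ones. Their patterning levels at Irf9-a, −0.882 and −2.38, were below 0 as in the BAF-kd libraries and below those of the 4 control libraries. In depth, 85.5 to 91% of the bins of Irf9-a held fragments in the control libraries and 68 to 92% in the BAF-kd libraries, and the part of depth in the difference was not tested. The deposited names of both BAF-kd replicate 1 libraries carry a token that differs from that of the other 6 libraries and that the labels do not explain. Without these 2 libraries, with each remaining BAF-kd library assumed to vary like the control groups, the difference at Irf9-a was −12.2 ± 3.00 in patterning (SE, n = 2 BAF-kd against 4 control libraries, limma adjusted p = 0.816) and 1.12 ± 0.235 in NDR occupancy (SE, limma adjusted p = 0.617). The second TSS of the gene, Irf9-b, had NDR occupancies of 0.791, 0.988, 1.86 and 1.01 in control and 0.562, 2.02, 0.770 and 1.33 in BAF-kd libraries, which overlapped.

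**Figure D5:**
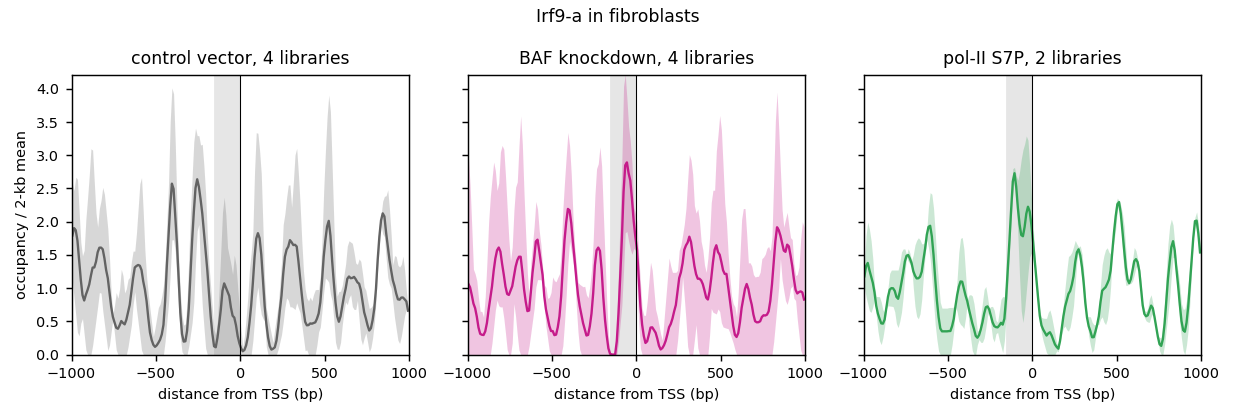
Lines show the mean and shading the lowest to highest library of occupancy divided by the 2000 bp mean at Irf9-a, against distance from the TSS in bp, in 4 control, 4 BAF-kd and 2 pol-II S7P libraries of fibroblasts, with the window of −150 to 0 bp in grey. A peak stands next to the TSS in the BAF-kd and S7P panels, where means of NDR occupancy were 1.94 (non-stimulated) and 1.18 (stimulated) with BAF-kd and 2.08 with S7P.

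Across the 11 TSSs, the effect of BAF-kd passed the adjusted threshold at 0 of 11 in patterning, with 0.0% of all promoters called, and at 0 of 11 in NDR occupancy, with 0.00751% called. Unadjusted p-values of limma were under 0.05 at 1 TSS in each measure, Irf9-a, against 5.91 and 6.14% of promoters. The difference in the response to TNF-α between control and BAF-kd libraries passed the adjusted threshold at 0 of 11 in both measures, with 0.0% of promoters called in patterning and 0.00751% in NDR occupancy. Unadjusted, Irf1-b and Irf5-a fell under 0.05 in patterning (5.65% of promoters), and Irf9-a in NDR occupancy (5.94%). At Irf1-b patterning levels were 1.37 and −5.85 without and 5.92 and 11.4 with TNF-α in control libraries, and 5.43 and 5.21 without and −0.126 and 0.728 with TNF-α in BAF-kd libraries. The control libraries were thus higher and the BAF-kd libraries lower when stimulated, with an estimate of −15.9 ± 4.72 (SE, limma adjusted p = 0.860). The corresponding estimate at Irf5-a was −13.5 ± 5.39 (SE, limma adjusted p = 0.860). Intervals for the other TSSs were wide. The 95% interval of the effect of BAF-kd on patterning was −6.95 to 12.6 at Irf1-a and −8.52 to 6.27 at Irf3, whose levels over the 8 libraries ran from 1.65 to 19 and from −4.99 to 10.8.

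Chromatin carrying pol-II S7P, a modification of polymerase at transcribed genes, was compared with H3K4me1 chromatin of stimulated control fibroblasts. In this comparison the antibody and paired-end sequencing go together and cannot be told apart. The H3K4me1 libraries came from cells with the control vector, whereas the S7P labels name no vector. A part of the vector can therefore not be told apart either. No member passed in patterning (0 of 11, with 0.0% of promoters called) or in NDR occupancy (0 of 11, with 0.0% called). Unadjusted limma p-values were under 0.05 for 4 of 11 in patterning, against 9.09% of promoters, and for 1 of 11 in NDR occupancy, against 8.09%. Irf3, which activates the interferon-β gene, was the 1 of the 4 in patterning that lay closer to the active template in S7P chromatin, with levels of 12.1 and 14.9 against 4.42 and 3.16 in H3K4me1 chromatin (difference 9.70 ± 4.08, SE, n = 2 against 2 libraries, limma adjusted p = 0.547). Irf9-a was farther from it, with −6.73 and −14.9 against 2.79 and 4.23 (difference −14.3 ± 3.62, SE, n = 2 against 2, limma adjusted p = 0.396). Its NDR occupancy was 1.58 and 2.58 in S7P and 1.03 and 0.867 in H3K4me1 chromatin. This comparison shares its 2 control libraries with that of BAF-kd, so that the values of Irf9-a in the 2 comparisons are not independent. Irf1-b and Irf5-a were also lower in S7P chromatin, with differences of −12.6 ± 3.26 (SE, limma adjusted p = 0.405) and −9.35 ± 3.62 (SE, limma adjusted p = 0.509). For comparison, the pooled H3K4me1 set of stimulated fibroblasts without a vector had patterning levels of 11.9 at Irf3 and −2.38 at Irf9-a. At Irf1-b and Irf5-a its levels were 7.63 and −14.2, and the part of the vector was not tested. Irf1-a, the steadiest NDR in H3K4me1 chromatin, had NDR occupancies of 0.770 and 0.336 in the S7P libraries. Of the 11 TSSs, 3 were patterned in each S7P library, against 34.5 and 44.0% of all promoters, and 3 in the S5P library, against 54.1%.

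Other genes of the pathway were counted as a list of 49 genes, of which 37 TSSs of 35 genes had a coverage score above 100: sensors and adaptors of microbial recognition, the kinases that phosphorylate IRFs, interferon receptors and their signalling, DNA-binding partners and corepressors, and targets with feedback regulators. None of the 37 TSSs passed the adjusted threshold in any of the 8 comparisons of the single libraries, in either direction, and at most 3 had an unadjusted limma p under 0.05 in any one of them, against 5.65 to 9.09% of all promoters. In the pooled sets, 19 and 21 of the 37 were patterned in the DC sets before and after LPS and 21 and 20 in the fibroblast sets before and after TNF-α, against 45.8, 45.4, 49.0 and 48.7% of all promoters. By role, targets and feedback regulators, the genes that IRFs themselves control, had 4 of 13 patterned in non-stimulated DCs and 7 of 13 after LPS, and 5 of 13 in each fibroblast set. Sensors and adaptors had 6 of 10 in each DC set and 5 of 10 in each fibroblast set. Interferon receptors and their signalling had 5 of 6 before and 2 of 6 after LPS, and 5 of 6 in each fibroblast set. DNA-binding partners and corepressors had 2 of 5 before and 4 of 5 after LPS, and 3 of 5 in each fibroblast set. Kinases had 2 of 3 in each DC set, and 3 and 2 of 3 in the fibroblast sets. These shares carry no test.

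The promoters whose profiles were most like each TSS were named by Pearson's r over the 800 points of the 4 pooled sets. Irf1-a was most like Get4 (r = 0.564) and Rnf44 (r = 0.556), and these were the highest values reached by any of the 11. Irf3 was most like Ung (0.51) and Timm8b (0.50), Irf5-b like Nmt1 (0.51) and Dnttip2 (0.42), and Irf9-a like Shisa5 (0.44) and Mrps11 (0.38). Irf1-b was most like Limk1 (0.49), Irf2 like Mapk6 (0.47), Irf9-b like BC049715 (0.46), Irf7 like Sephs2 (0.45) and Irf5-a like Commd7 (0.42). The closest profiles to Irf4 and Irf8 were those of Arhgap45 (0.35) and Comtd1 (0.37), the lowest of the 11. The points of one profile are neighbouring bins of shared fragments, so that these correlations are given as descriptions only.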

How the data were processed

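ChIP-MNase occupancies of 15 mouse libraries and a promoter annotation were analysed. The authors aligned reads with bowtie to mm9 (Bowtie2 and bedtools are named in the submitters' processing notes), selected fragments between 140 and 180 bp where both ends were read, lengthened single-end reads to the mean fragment, and deposited nucleosome occupancy signal as fragments per 10 bp bin relative to the surrounding 1 kb, averaged over 50 bp bins. Signal normalised in this way loses differences in ChIP recovery between promoters, and bins without fragments are 0. The deposited annotation holds coverage scores, FPKM before stimulation (public RNA-seq that the authors retrieved, 1 value per cell-type) and the authors' log2 expression differences upon stimulation, which were not used. All deposited start positions were read as 1-based, since GENCODE transcripts begin exactly there for 7954 of 13036 promoters on the plus strand.

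Members, gene lists and motifs were chosen with earlier results of these data known. The named genes are all annotated TSSs of the 8 factors, promoters within 1000 bp of them and, for each, the 2 most similar profiles of other genes more than 2000 bp away. Symbols matched the reference annotation for 96.3% of promoters. Promoters needed a coverage score above 100. Patterning level was the sum over 200 bins of the centred template of active promoters, rescaled from 0 to 1, times centred occupancy, and fibroblast templates served the pol-II libraries. Peaks left out the lowest 20% of topographic prominences. Groups came from the labels. Inducible promoters were not excluded from the active class, since the authors' expression differences were not used. The reporting summary names 2 S5P replicates, of which 1 library was analysed here. The 8 single H3K4me1 libraries, or these and the 2 S7P libraries, were fitted by group means with limma 3.58.1 (R 4.3.3) without a replicate block, with two-sided moderated tests and Benjamini-Hochberg adjustment over 13559 promoters (patterning) or the 13309 and 13307 with signal in each library (NDR occupancy). One motif of the search is not reported here. The code was tested on simulated data. Pooled sets and the single S5P library were not tested. Alternatives were other scaling, templates, windows, coverage minimums and models, and each replicate left out. Pandas 2.3.3 and numpy 2.4.6 were used for the measures.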

Additional observations from a re-analysis of the deposited data

How the results depend on the processing

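Precision is limited by 2 libraries per group, pooled sets without replicates, unknown depth and promoters that share fragments. The count of IRF TSSs that passed the adjusted threshold was 0 under each alternative in all 8 comparisons. Of the 12 estimates at IRF TSSs with an unadjusted p under 0.05, 0 changed sign under any alternative, but 48 of the other 76 did under at least 1, such as that of BAF-kd in patterning at Irf1-a (from −1.52 to 7.17) and at Irf3 (from −4.18 to 1.93). Of the single promoter called in NDR occupancy for TNF-α, BAF-kd and their interaction (Gpr31b, with 6.67 in both non-stimulated BAF-kd libraries and 0 in the others), 0 remained with a denominator from −1000 to −500 bp, 0 with the replicate block, 0 without both BAF-kd replicate 1 libraries (chosen after seeing the data) and, for TNF-α and BAF-kd, 0 in an additive model. Leaving out 1 library gave 0 to 2 promoters for TNF-α, 0 to 2 for BAF-kd, 0 to 3 for the interaction and 0 to 6 for S7P (main count 0, with 6 without S7P replicate 1 and 1 without S7P replicate 2); the higher counts of the first 3 came without control non-stimulated replicate 2. At Irf9-a, the unadjusted p stayed under 0.05 in 16 of 16 alternatives for BAF-kd in both measures, with estimates from −13.9 to −7.88 in patterning and from 0.609 to 1.12 in NDR occupancy, and adjusted p from 0.678 to 0.953 and from 0.584 to 0.905.

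In the pooled sets, square-rooted occupancy changed the number of TSSs with the higher patterning percentile in non-stimulated DCs than in fibroblasts from 5 to 8 of 11, and that in LPS-stimulated than in non-stimulated DCs from 3 to 5. It also changed the patterned TSSs from 5 to 9 in non-stimulated DCs and from 5 to 3 in non-stimulated fibroblasts. TSSs with the higher NDR percentile in non-stimulated DCs than in fibroblasts were 3 and became 5 with a window of −200 to 50 bp and 5 with a denominator from −1000 to −500 bp. The cause of these shifts was not tested.

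Replicate numbers are shared between the groups, but same-numbered libraries did not deviate together, with correlations of −0.00736 to 0.0235 between their deviations. With the replicate block, Irf9-a had a difference of −11.1 ± 2.27 in patterning (SE, limma adjusted p = 0.845), and 0 of 11 TSSs passed in any comparison.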

Other observations

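The single pol-II S5P library of TNF-α-stimulated fibroblasts entered no comparison. S5P marks polymerase near the start of genes, and in this library 3 of 11 IRF TSSs were patterned, Irf1-a, Irf2 and Irf3, with levels of 7.77, 11.1 and 11.3, against 54.1% of all promoters. Their relative NDR occupancies were 0.0679, 0 and 0.183, and the median promoter had 0.446. Irf9-a had a patterning level of −6.36 and the highest NDR occupancy of the 11, 1.91. Irf7 (1.2), Irf8 (1.06), Irf1-b (0.943) and Irf9-b (0.933) also lay above the median promoter, Irf5-a (0.421) and Irf4 (0.177) below it, and Irf5-b (0.462) next to it.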
